A study of Mus musculus with 8 samples.

Results

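Ccdc85b and the 7 core genes of the AP-1 transcription factor (Fosl1, Fosl2, Fos, Fosb, Jun, Junb and Jund) were followed across RNA-seq libraries of EO771, a mouse breast cancer cell line. The 8 genes were found by their symbols among the 49997 genes of the count table. Ccdc85b was selected on its lower level in both treatments and on its place beside Fosl1, so its treatment differences are given as a description with no test, and the other 7 genes were added for comparison. There were 4 groups of 2 libraries. In the first experiment, EO771 cells were kept for 48 h in vehicle, which was saline with 2% DMSO, or in 12-HETE at 100 nM, a lipid made by 12-lipoxygenase from arachidonic acid, as replicates 4 and 5. Other EO771 cells were transduced with an empty vector or with a vector that overexpresses ADAR1 p150, the interferon-inducible form of an enzyme that edits adenosine to inosine in double-stranded RNA, as replicates 1 and 2. The sources name no clone. The libraries of a group are described as independent experiments, and the p-values measure the spread between them.

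AP-1 is a dimer of basic leucine zipper proteins. Jun proteins pair with each other or with Fos proteins, whereas Fos proteins need a Jun partner, and the dimers bind the TPA response element. Fos, Fosb, Jun and Junb are immediate early genes that MAP kinase signaling switches on within minutes of a stimulus, and their messengers decay quickly. Fosl1 (Fra-1) and Fosl2 (Fra-2) lack the strong activation domain of Fos, last longer, and Fosl1 is known for its high level in invasive breast cancer cells. Ccdc85b, also known as DIPA, encodes a small coiled-coil protein reported to repress C/EBP-dependent and β-catenin/TCF-dependent transcription.

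What a count under a gene's name stands for has to be read first, since the strand setting of the read counting is not given. The values listed for many genes may not be those of their messengers. Some genes that nearly every cell uses heavily were listed low in all 8 libraries. Gapdh, a glycolytic enzyme gene, had 13 to 42 counts and Tmsb4x, an actin-binding peptide gene, had 0 to 4. The ribosomal protein gene Rpl32 had 16 to 58. Others were listed higher, with 364 to 1227 counts for Actb, 143 to 359 for Eef1a1 and 81 to 155 for Pfn1. Of the 20 most abundant genes with a GENCODE position (the 3 most abundant RNAs of the table left out), 14 shared exonic bases with a protein-coding gene on the opposite strand, and in each of the 14 that coding gene was listed far lower in all libraries. Cand2 had 2920 to 4117 counts against the 16 to 58 of Rpl32, LTO1 had 1090 to 3565 against 32 to 73 for the cyclin gene Ccnd1, and Snx22 had 1217 to 2365 against 5 to 19 for Ppib. The muscle enolase gene Eno3 and the lymphocyte receptor gene Tigit were also among the 20, with 6679 to 13622 and 3283 to 6404 counts. Neither shared exonic bases with a protein-coding gene on the opposite strand, and nor did Gps2 or Rabepk, which were also among the 20. Annotated genes opposite a coding exon were 10.3% of all annotated genes and held 42.4% to 46.3% of the counts outside the 3 most abundant RNAs. A table in which most reads were listed on the strand opposite to their RNA could hold values like these, but this was not tested. Reads were not examined here. In such a table the counts under Ccdc85b would hold reads of the overlapping Fosl1 messenger, and genes with no overlap would keep only a remnant of theirs. A value below is therefore the count listed under a symbol, and neither its size nor its direction can be taken as the level of that gene's messenger. These genes were picked for this check after their values were seen, and taking the most abundant ones favors partners listed lower.

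The libraries held 1101767 to 1537037 counts, of which the 3 most abundant RNAs (AY036118, Rn7s1 and Rn7s2) took 45.1% to 50.9%, so 3 counts, the limit that a count of 0 allows, stood for 2.11 to 2.74 CPM, the count scaled to library size. Intervals and limits of this kind cover counting error only. Adar, the overexpressed gene, had 5, 5, 7 and 6 counts in the vehicle and 12-HETE libraries, 2 and 8 in the vector libraries, and 181 and 140 in the ADAR1 p150 libraries. Of 6 epithelial markers, 4 keratins passed the count minimum, Epcam was at 1 to 4 counts and Cdh1 at 0 in all libraries. The leukocyte markers Cd3e and Adgre1 were at 0 throughout and Ptprc was at 0 or 1, while the macrophage marker Cd68 had 10 to 26 counts. The endothelial markers summed to 8 and 10 counts in vehicle cells, 1 and 3 under 12-HETE, 6 and 9 in vector cells and 2 and 12 under ADAR1 p150. The part of these markers in the results below was not tested. In bulk RNA, fewer cells of a type and less RNA per cell cannot be told apart.

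Ccdc85b lies on the minus strand of mouse chromosome 19 (GENCODE M21, GRCm38, chr19:5453180-5457894) and Fosl1 on the plus strand beside it (chr19:5447547-5455946). The genes run toward each other and past each other. Exons 3 and 4 of the full-length Fosl1 transcript, of 108 and 1055 bases, lay wholly inside exon 1 of Ccdc85b. The shared 1163 bases were 57.2% of the exonic bases of Fosl1 and 24.7% of those of Ccdc85b. Reads of these bases cannot be assigned to Ccdc85b or to Fosl1 from the table, whether they were counted without strand or on the opposite strand, so every Ccdc85b and Fosl1 value below carries that uncertainty.

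**Figure D1:**
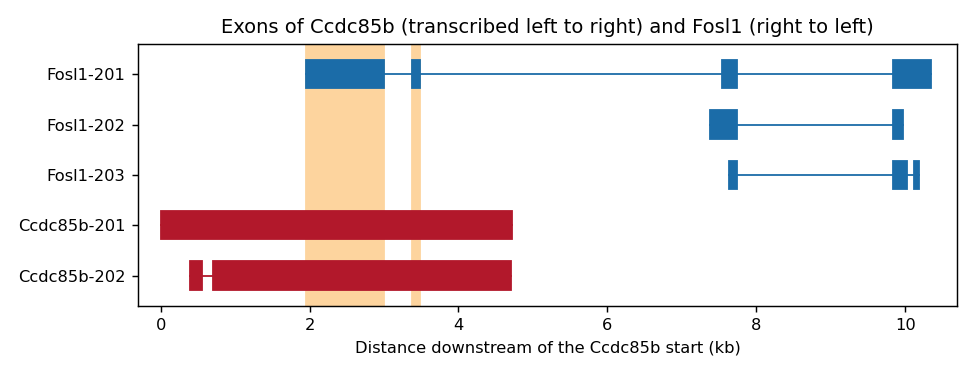
Exons of the annotated transcripts of Ccdc85b (red) and Fosl1 (blue) against the distance downstream of the Ccdc85b start in kb, with thin lines for introns. The shaded bands mark exons 3 and 4 of Fosl1, whose 1163 bases lay within exon 1 of Ccdc85b on the opposite strand.

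The map of exons shows that the shorter Fosl1 transcripts do not reach Ccdc85b. Among the other members, Jun shared 232 exonic bases with Junos, which had 0 to 2 counts, and Junb shared 173 bases with Prdx2, a peroxidase gene with 9 to 24 counts. Jund shared 877 bases with the opposite-strand gene Gm11175, which has no row of that name in the table. Fosl2, Fos and Fosb had no opposite-strand exon overlap.

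The sequences before the RefSeq starts of 7 of the 8 members (GRCm38.p6, 250 upstream bases) were searched on both strands for 4 short motifs, to show which AP-1, cAMP response element and CCAAT-box letters sit beside genes that AP-1 and cAMP response factors are known to control. The letters TGANTCA, a TPA response element core, were in none of the 7 windows and in 6.75% of 32851 promoters. The letters TGACNTCA, a longer AP-1 and ATF element, were in the Jun window alone among the members and in 7.49% of all promoters. TGACG, the core of a cAMP response element, was in the Fos, Fosb and Junb windows and in 17.8% of promoters, and can overlap TGACNTCA where N is G. CCAAT was in the Ccdc85b, Jun and Junb windows and in 33.8% of promoters. A match is a run of letters and not a measured binding site. The stretches below are written 5′ to 3′ on the gene's strand with the matched letters in capitals. They come from chr19:5457596-5457625 (minus strand, Ccdc85b, where ATTGG is CCAAT read on the other strand), chr4:95052249-95052278 (minus strand, Jun), chr12:85473748-85473777 (plus strand, Fos) and chr8:84978749-84978998 (minus strand, the whole Junb window, with a TGACG and a CCAAT). The RefSeq start of Ccdc85b lies downstream of its GENCODE start, so the Ccdc85b stretch falls inside GENCODE exon 1.
Ccdc85b: ggagactttctggATTGGctgttcttgggc
Jun: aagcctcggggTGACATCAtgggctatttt
Fos: tggggcgtagagtTGACGacagagcgcccg
Junb: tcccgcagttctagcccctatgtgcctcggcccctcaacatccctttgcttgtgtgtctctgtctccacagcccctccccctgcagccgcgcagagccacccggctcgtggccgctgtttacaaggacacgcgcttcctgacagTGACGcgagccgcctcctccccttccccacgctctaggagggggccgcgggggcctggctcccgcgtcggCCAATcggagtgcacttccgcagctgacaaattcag

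Ccdc85b was listed with the most counts of any member in every library, and its counts were lower in both treatments. It had 1023 and 967 counts in vehicle cells against 625 and 581 under 12-HETE, and 1144 and 1142 in vector cells against 378 and 374 under ADAR1 p150. Both treated groups lay below their controls with no overlap, and the ADAR1 p150 libraries were the lowest of all 8. On the normalized scale the level was 839 CPM ± 52.0 (SD, n = 2) in vehicle cells, 445 ± 0.622 under 12-HETE, 1021 ± 32.9 in vector cells and 274 ± 11.9 under ADAR1 p150. The order of the levels was therefore vector, vehicle, 12-HETE, ADAR1 p150. The log2 fold change was -0.91 (SE 0.096), or 1.88-fold lower, under 12-HETE and -1.90 (SE 0.099), or 3.72-fold lower, under ADAR1 p150. The ADAR1 p150 change was 0.98 further down on the log2 scale (difference -0.98, SE 0.14). These values chose the gene. With a call set at an adjusted p under 0.05 (quasi-likelihood test of edgeR, Benjamini-Hochberg adjustment) and at least a 2-fold change, the 12-HETE change of Ccdc85b lay under the fold limit and the ADAR1 p150 change past it.

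The vector libraries, at 998 and 1044 CPM, lay above the vehicle libraries, at 802 and 876 CPM, with no overlap, and the log2 difference was 0.28 (SE 0.093). The control levels are part of the contrasts that chose the gene, so this too is a description. Only 3 of the 6901 genes tested (0.0435%) were called between these controls, which also differ in handling, by DMSO or by transduction. That number was 11 without the vehicle 4 library and 22 without the vector 2 library.

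Among all 6901 genes tested, Ccdc85b ranked 117 by mean count. Counted from the most lowered gene, it stood at 737 under 12-HETE and at 76 under ADAR1 p150. Among the 228 chromosome 19 genes tested it stood at 34 under 12-HETE and at 1 under ADAR1 p150. The fold changes ranked here are those that chose the gene, so these ranks are a description. The median log2 fold change over chromosome 19 was -0.35 under 12-HETE and -0.23 under ADAR1 p150, against 0.00 and 0.07 over all genes. In the first contrast 158 of its 228 genes were lower at any size and in the second 156, against 121 of 228 between the controls. Under 12-HETE 25 of the 228 were called lower and 7 higher, where 8.25% and 6.12% of all genes tested were. Under ADAR1 p150 18 were called lower and 9 higher, where 4.69% and 8.11% of all genes tested were. The part of this chromosome-wide shift in the Ccdc85b values was not tested.

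**Figure D2:**
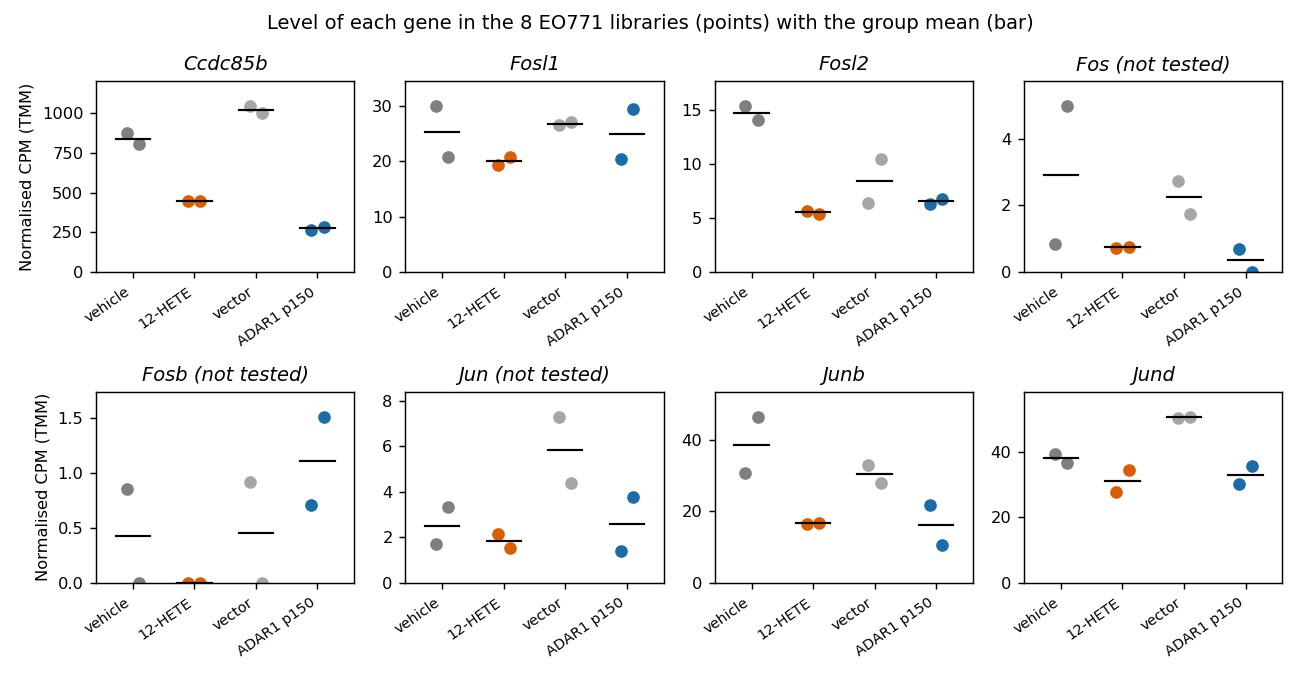
Normalized level (CPM, TMM-scaled) of each of the 8 genes in the 8 libraries, with points for libraries, a bar for the mean of each group of 2, and a separate axis from 0 for each gene. Ccdc85b runs from 266 to 1044 CPM and separates the treated groups from their controls, Fosl1 stays between 19.3 and 29.96 CPM in all groups, and Fos, Fosb and Jun stay at or under 7.30 CPM.

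The plot of levels by library sets the member genes side by side. Per kb of exon, to allow for gene length, Ccdc85b had a mean of 137 CPM over the groups and Jund 22.8. Fosl1 had 11.9 CPM per kb and Junb 11.1. The other 4 members were far lower on this scale, with Jun at 1.00, Fosl2 at 0.912, Fos at 0.664 and Fosb at 0.0798. Jund was the leading AP-1 gene per kb in each of the 4 groups, from 18.7 under 12-HETE to 30.2 in vector cells. Fosl1 and Junb exchanged places between groups, since Junb was at 16.8 against 12.5 for Fosl1 in vehicle cells but at 7.23 against 9.82 under 12-HETE, and their order cannot be read beyond the spread. The order is that of the listed counts.

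Fosl1, the gene that shares bases with Ccdc85b, was not called in either treatment. It had 35 and 25 counts in vehicle cells, 27 and 27 under 12-HETE, 29 and 31 in vector cells, and 29 and 39 under ADAR1 p150. In CPM the 12-HETE libraries (19.3 and 20.7) lay just under the vehicle libraries (20.7 and 29.96), by less than the gap between those 2, and the ADAR1 p150 libraries (20.4 and 29.5) lay on both sides of the vector libraries (26.5 and 27.1). Its log2 fold change was -0.34 (SE 0.30, adjusted p = 0.425) under 12-HETE and -0.11 (SE 0.29, adjusted p = 0.827) under ADAR1 p150. Its sign under ADAR1 p150 turned to 0.14 without the ADAR1 p150 1 library. The misses do not show that Fosl1 was unchanged, since its standard errors of 0.30 and 0.29 were well above the 0.096 and 0.099 of Ccdc85b.

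The ratio of Ccdc85b counts to Fosl1 counts restates this within each library. It was 29.2 and 38.7 in vehicle cells, 23.1 and 21.5 under 12-HETE, 39.4 and 36.8 in vector cells, and 13.03 and 9.59 under ADAR1 p150. The ratio was lowest in the ADAR1 p150 libraries, and it did not overlap between a treatment and its control. When both genes were counted as 1 feature, the log2 fold change under ADAR1 p150 was -1.81, since Fosl1 adds few counts.

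Fosl2, which encodes Fra-2, had its highest counts in vehicle cells. Its counts were 18 and 17 in vehicle cells, 8 and 7 under 12-HETE, 7 and 12 in vector cells, and 9 and 9 under ADAR1 p150. The vehicle libraries stood above all others, and the ADAR1 p150 libraries (6.33 and 6.80 CPM) overlapped the vector libraries (6.39 and 10.5 CPM). The log2 fold change was -1.40 (SE 0.44, adjusted p = 0.0142) under 12-HETE and -0.36 (SE 0.48, adjusted p = 0.64) under ADAR1 p150. Fosl2 passed the minimum mean count of 10 only through the vehicle libraries, with a mean of 10.9 counts over all libraries and 8.67 without those 2, so it had to be high there and its p against vehicle is no support for a difference. Its 12-HETE call was lost with DESeq2 (adjusted p = 0.178) and without the vehicle 4, 12-HETE 4 or 12-HETE 5 library (adjusted p = 0.0692, 0.0742 and 0.0781), and the sign of the ADAR1 p150 value turned to 0.04 without vector 2.

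Junb, an early responding Jun protein that can restrain Jun, was called lower under 12-HETE. It had 36 and 56 counts in vehicle cells and 23 and 22 under 12-HETE. It had 36 and 32 counts in vector cells and 31 and 14 under ADAR1 p150. Neither pair of groups overlapped in CPM, although the 2 ADAR1 p150 libraries were 21.8 and 10.6 CPM and differed by more than the 2 vector libraries did. The log2 fold change was -1.22 (SE 0.30, adjusted p = 0.0021) under 12-HETE, past both limits. With ADAR1 p150 it was -0.89 (SE 0.32, adjusted p = 0.0362), past the p limit and under 2-fold. The 12-HETE p rose to 0.0659 without vehicle 5. The ADAR1 p150 p rose to 0.167 with DESeq2, to 0.179 and 0.0605 without vector 1 or vector 2, and to 0.357 without ADAR1 p150 2.

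Jund, the Jun protein that is present in most resting cells, was not called in either treatment. It had 46 and 44 counts in vehicle cells, 39 and 45 under 12-HETE, 55 and 58 in vector cells, and 43 and 47 under ADAR1 p150. The vector libraries were the highest of all, at 50.2 and 50.7 CPM, and the ADAR1 p150 libraries, at 30.3 and 35.5 CPM, lay below them. The log2 fold change was -0.29 (SE 0.23, adjusted p = 0.386) under 12-HETE and -0.62 (SE 0.22, adjusted p = 0.0369) under ADAR1 p150, the latter under 2-fold. The adjusted p under ADAR1 p150 passed the limit no longer with DESeq2 (0.207), nor without vector 1 (0.127), vector 2 (0.143) or ADAR1 p150 1 (0.181).

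Fos, Fosb and Jun, the classic early genes, were at or near the detection limit and were not tested. Fos had 1 and 6 counts in vehicle cells, 1 and 1 under 12-HETE, 3 and 2 in vector cells, and 1 and 0 under ADAR1 p150. Fosb had 0 to 2 counts in every library. Jun had 2 and 4 counts in vehicle cells, 3 and 2 under 12-HETE, 8 and 5 in vector cells, and 2 and 5 under ADAR1 p150. In a fit with no count minimum, their adjusted p under 12-HETE was 0.423 for Fos, 0.844 for Fosb and 0.875 for Jun. Under ADAR1 p150 it was 0.411, 0.88 and 0.368. No difference of these 3 genes was detectable at counts this low. Whether the counts were low through depth or through the strand of counting was not tested.

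In all, 4 of the 7 Fos and Jun genes passed the count minimum. With 12-HETE, 2 of the 4 were called lower and 0 higher, where 8.25% of all genes tested were called lower, 6.12% higher and 14.4% in either direction. One of the calls is Fosl2, which the filter favored, so the count is no support for a shared fall, and Junb is the other. The median log2 fold change of the 4 was -0.78, against 0.00 over all genes, but -0.36 with 10 counts in every library and -1.27 with no minimum. With ADAR1 p150, 0 of the 4 were called by edgeR's test (2 at an unadjusted p under 0.05 and 0 called by DESeq2), where 4.69% of all genes were called lower, 8.11% higher and 12.8% in either direction, and their median was -0.49 against 0.07 over all genes. The sum over the 7 genes was 119 and 126 CPM in vehicle cells, 72.0 and 79.6 under 12-HETE, 127 and 122 in vector cells, and 81.6 and 87.7 under ADAR1 p150. Both treated groups lay below their controls in this sum. Within the sum of the 3 Jun genes, the same separation was seen, with 71.9 and 86.3 CPM in vehicle cells and 46.4 and 52.8 under 12-HETE, and with 90.4 and 83.0 in vector cells and 53.5 and 49.9 under ADAR1 p150. The sum of the 4 Fos genes was 47.1 and 39.8 CPM in vehicle cells, 25.7 and 26.8 under 12-HETE, 36.5 and 39.3 in vector cells, and 28.1 and 37.8 under ADAR1 p150, so that it overlapped between vector and ADAR1 p150.

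The difference between the 2 treatment effects was tested for the 4 genes with an interaction contrast. It was 0.23 for Fosl1 (adjusted p = 0.774), 1.03 for Fosl2 (SE 0.66, adjusted p = 0.325), 0.33 for Junb (adjusted p = 0.697) and -0.33 for Jund (adjusted p = 0.558). None of the 4 was called by edgeR's test or by DESeq2, with 0 at an unadjusted p under 0.05 in either, where 8.33% of all genes tested were called. Between vector and vehicle the log2 differences were 0.08 for Fosl1 (adjusted p = 0.934), -0.79 for Fosl2 (adjusted p = 0.475), -0.35 for Junb (adjusted p = 0.648) and 0.41 for Jund (adjusted p = 0.484). For Fosl2 this control difference was larger than its ADAR1 p150 difference, and for Jund larger than its 12-HETE difference.

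The genes around Ccdc85b were read next. Within 100 kb of its start 23 genes are annotated, of which 19 were in the table and 11, beside Ccdc85b, were tested. None of the 11 was called in either treatment by edgeR's test (3 at an unadjusted p under 0.05 under 12-HETE and 4 under ADAR1 p150), while DESeq2 called 0 and 1. Their median log2 fold change was -0.34 under 12-HETE and -0.09 under ADAR1 p150. At the adjusted p alone, Mus81, a DNA repair nuclease gene, was higher under 12-HETE (0.54, adjusted p = 0.0238). The long noncoding gene 4930481A15Rik was lower under 12-HETE (-0.58, adjusted p = 0.00144) and under ADAR1 p150 (-0.41, adjusted p = 0.024). Banf1, which encodes a chromatin-bridging protein of the nuclear envelope, was lower under ADAR1 p150 (-0.94, adjusted p = 0.00365). Each lost the p limit when a library was left out. The adjusted p was 0.284, 0.0673 and 0.116 for Mus81 without vehicle 4, 12-HETE 4 or 12-HETE 5, and 0.0677 for 4930481A15Rik under 12-HETE without vehicle 4. With ADAR1 p150 it was 0.165, 0.0528 and 0.116 for 4930481A15Rik without vector 1, vector 2 or ADAR1 p150 2, and 0.0753 and 0.14 for Banf1 without vector 2 or ADAR1 p150 2. Cfl1, whose protein cofilin severs actin and is abundant in nearly all cells, had 22 to 72 counts, while Snx32, which shares 468 exonic bases with it on the opposite strand, had 69 to 123.

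**Figure D3:**
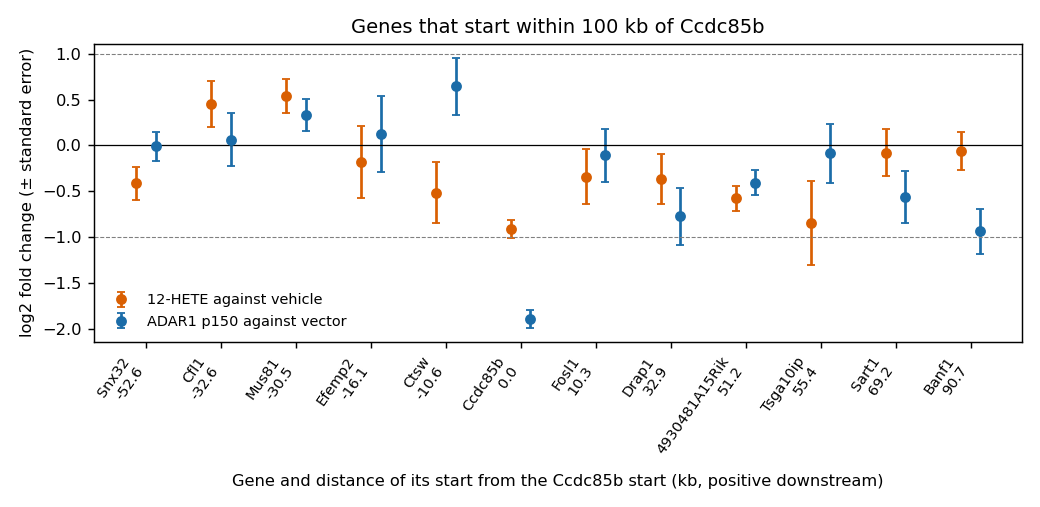
Log2 fold change with its standard error for the 12 tested genes that start within 100 kb of Ccdc85b, ordered by distance from its start in kb, for 12-HETE against vehicle (orange) and ADAR1 p150 against vector (blue). The dashed lines mark a 2-fold change, which Ccdc85b alone passes, under ADAR1 p150 at -1.90.

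The plot of the neighborhood shows Fosl1, the nearest tested gene by start, at -0.34 and -0.11. Ccdc85c, the tested relative of Ccdc85b on another chromosome, had 22 and 25 counts in vehicle cells, 19 and 16 under 12-HETE, 25 and 25 in vector cells, and 20 and 10 under ADAR1 p150. It was lower under ADAR1 p150 (-1.03, SE 0.35, adjusted p = 0.0298) and not called under 12-HETE (-0.61, adjusted p = 0.194). The ADAR1 p150 call was lost with DESeq2 (adjusted p = 0.178) and without vector 1, vector 2 or ADAR1 p150 2 (adjusted p = 0.118, 0.091 and 0.248).

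Profiles over the 8 libraries were compared with that of Ccdc85b among the other 2217 genes whose mean count was 50 or more, by the root mean square (RMS) difference of log2 CPM after each gene's own mean was taken off. The median gene differed by an RMS of 0.809. The 5 closest were 9930014A18Rik (RMS 0.0988), Dmrt1i (0.147), A930001C03Rik (0.172), Gm33153 (0.175) and Gm15708 (0.187). The choice fixed that these fell in both treatments, and their folds are a description. 9930014A18Rik had 672 and 622 counts in vehicle cells, 391 and 339 under 12-HETE, 626 and 780 in vector cells, and 229 and 216 under ADAR1 p150. Of the 5, 4 have a position in GENCODE and none of these 4 is annotated as protein coding. The 4 share exonic bases with a protein-coding gene on the opposite strand, as Ccdc85b does with Fosl1. 9930014A18Rik shares 2474 bases with Fam84b, which has no row of that name in the table. Dmrt1i shares 122 and Gm15708 shares 34 bases with Baiap2l1, an actin-regulating adaptor gene that had 39 to 94 counts. A930001C03Rik shares 950 bases with Syt12, a synaptotagmin gene with 68 to 165 counts, and 170 bases with Rhod, a small GTPase gene with 1 to 6 counts. An opposite-strand exon overlap with a gene of any kind was common at this depth. Among the 1668 annotated genes whose mean count was 50 or more, 70.9% had one. Of all 37981 annotated genes in the table, 17.9% did. Overlap with a protein-coding gene, a narrower measure, was found in 10.3% of all annotated genes. No Fos or Jun gene reached the mean count of 50.

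**Figure D4:**
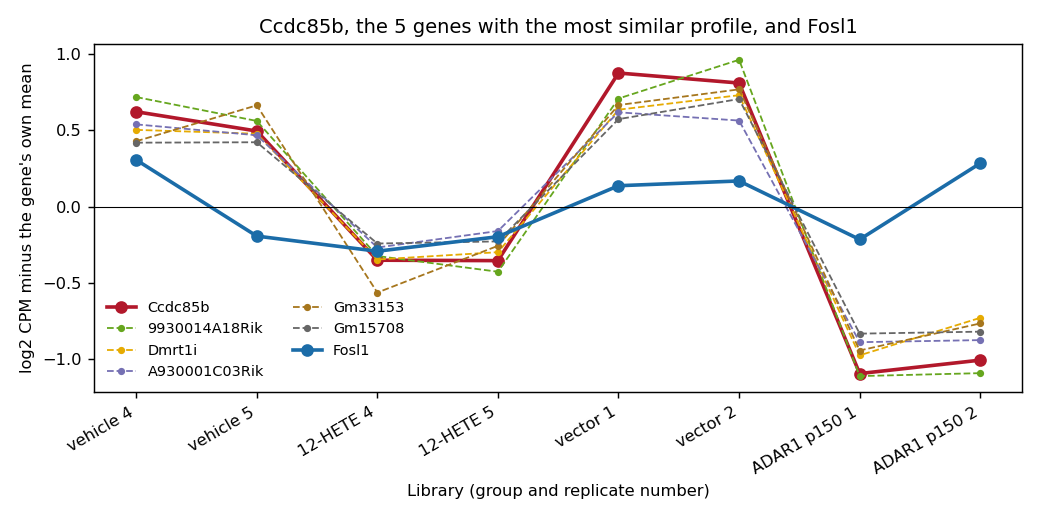
Log2 CPM minus the gene's own mean in each of the 8 libraries for Ccdc85b (red), the 5 genes with the most similar profile (dashed) and Fosl1 (blue). The dashed lines were chosen for following the red line, with RMS differences of 0.0988 to 0.187, while Fosl1, which was not chosen this way, has 1 ADAR1 p150 library above 0 and 1 below.

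In the plot of profiles, the Ccdc85b line drops less under 12-HETE than under ADAR1 p150, and the Fosl1 line of the ADAR1 p150 libraries lies on both sides of 0. Genes of the routes into and out of AP-1 were then read from gene lists, with 15 calls for 12-HETE and 11 for ADAR1 p150. Of these, 8 and 7 kept an adjusted p under 0.05 in each alternative setting run. The other 7 and 4 lost it with DESeq2, and each was also lost without at least 1 library. Of all genes tested, 8.25% were called lower and 6.12% higher under 12-HETE, and 4.69% and 8.11% under ADAR1 p150. Each list below had too few genes tested for its calls to be read as above or below these shares.

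Among 12 tested of 21 other bZIP genes that can pair or compete with Fos and Jun, 3 were lower under 12-HETE, and 3 were lower and 1 higher under ADAR1 p150. Their medians were 0.04 and -0.48, the second moving to -0.13 with 10 counts in every library, -0.19 with no minimum and -0.16 without vector 2. Jdp2, which encodes a repressor that binds Jun, was lower in both, with 35 and 41 counts in vehicle cells against 14 and 12 under 12-HETE, and 34 and 40 in vector cells against 19 and 19 under ADAR1 p150. Its log2 fold change was -1.73 (adjusted p = 6.82e-05) and -1.25 (adjusted p = 0.00179). Atf4, the translation-controlled factor of the integrated stress response, had 29 and 37 counts in vector cells and 9 and 5 under ADAR1 p150 (-2.51, adjusted p = 5.52e-06). In the other experiment Atf4 had 40 and 56 against 36 and 23 counts (-0.89, adjusted p = 0.0136), and this p was 0.15 with DESeq2 and 0.154 and 0.169 without vehicle 5 or 12-HETE 5. Its target Atf5 had 368 and 313 against 173 and 178 counts (-1.25, adjusted p = 1.01e-09), with 302 and 286 in vehicle cells and 408 and 408 under 12-HETE (0.28, adjusted p = 0.0627). The less stable calls were Atf6 (-1.41, adjusted p = 0.0214) and Mafk (-1.18, adjusted p = 0.0388) under 12-HETE, and Creb1 (1.54, adjusted p = 0.00348) under ADAR1 p150. Without the 12-HETE 5 or the vehicle 5 library the adjusted p was 0.216 and 0.147 for Atf6 and 0.25 and 0.293 for Mafk, and without vector 1 it was 0.108 for Creb1. Atf6 passed the count minimum only through the vehicle libraries (mean 12.2, and 9.67 without them), so its p is no support either.

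Upstream, the MAP kinase list had 12 tested of 28 genes with medians of -0.11 and 0.13. Map3k5 (ASK1), a stress kinase that activates JNK and p38, was lower under 12-HETE (-1.40, adjusted p = 0.00664), with 25 and 24 against 7 and 14 counts, and the adjusted p was 0.148 without 12-HETE 4. Map3k1, a kinase upstream of JNK, was higher under ADAR1 p150 (1.16, adjusted p = 0.00273), with 14 and 21 against 52 and 44 counts, and the adjusted p was 0.0638 without vector 1. Of the serum response factors of the Fos promoter, 2 of 7 in the table were tested and 0 were called in either treatment by edgeR's test or DESeq2, with 0 at an unadjusted p under 0.05. Of 8 tested phosphatases and feedback inhibitors, 2 were lower under 12-HETE and 1 under ADAR1 p150, with medians of -0.35 and -0.65. With 10 counts in every library these medians turned to 0.11 and 0.64, and the second was -0.40 without vector 2 and -0.24 without ADAR1 p150 2. These were Dusp1, a nuclear MAP kinase phosphatase that is itself an early gene (-1.57, adjusted p = 0.00396), and Dusp16, a JNK phosphatase (-1.11, adjusted p = 0.0401), under 12-HETE, and Spry1, an inhibitor of receptor signaling (-1.53, adjusted p = 0.0148), under ADAR1 p150. The adjusted p was 0.0642 for Dusp1 without 12-HETE 5, 0.378 and 0.382 for Dusp16 without vehicle 4 or 12-HETE 4, and 0.153 and 0.133 for Spry1 without vector 1 or ADAR1 p150 1. Of 8 tested ligases and cofactors of AP-1, 0 were called in either treatment by edgeR's test or DESeq2 (0 and 1 at an unadjusted p under 0.05), with medians of 0.19 and 0.15.

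Other immediate early genes were read beside Fos, Fosb, Jun and Junb. Of 9 tested, 2 were lower with each treatment, and the medians were -0.83 and -0.42, the second -0.76 without ADAR1 p150 1. Myc, a growth-driving transcription factor, had 26 and 42 counts in vehicle cells against 11 and 5 under 12-HETE (-2.26, adjusted p = 3.13e-05), and 21 and 24 in vector cells against 8 and 13 under ADAR1 p150 (-1.38, adjusted p = 0.0103). The second of these was lost without vector 2 (adjusted p = 0.0593) or ADAR1 p150 1 (0.124). Klf6, a zinc finger factor, had 68 and 100 against 48 and 32 counts (-1.26, adjusted p = 3.93e-05), and 51 and 60 against 26 and 23 (-1.47, adjusted p = 5.34e-05). Its groups did not overlap in either treatment.

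Downstream, 18 of 45 genes known as AP-1 targets were tested. Under 12-HETE 3 were lower and 2 higher, with a median of -0.14 (-0.43 without vehicle 4), and under ADAR1 p150 none was called by edgeR's test (7 at an unadjusted p under 0.05) or by DESeq2, with a median of -0.17. Axl, a receptor tyrosine kinase of invasive cells, had 48 and 63 against 10 and 12 (-2.51, adjusted p = 5.15e-08). Under ADAR1 p150 it had 33 and 25 against 39 and 47 counts in vector cells (-0.86, adjusted p = 0.0145), and this p was 0.121 with DESeq2 and 0.13 and 0.102 without vector 2 or ADAR1 p150 2. Lgals3, which encodes the secreted lectin galectin-3, had 93 and 119 against 40 and 34 (-1.70, adjusted p = 2.36e-07). Axl and Lgals3 were lower in both 12-HETE libraries than in either vehicle library. Hmga2, a chromatin protein gene, lay at the fold limit with 59 and 80 against 41 and 38 counts (-1.002, adjusted p = 0.000685), and without vehicle 5 its value was -0.86, under 2-fold. S100a6, a calcium-binding protein gene (1.34, adjusted p = 0.0219), and Sphk1, a sphingosine kinase gene (1.23, adjusted p = 0.00999), were higher, but from 4 and 10 against 25 and 16 counts and from 16 and 9 against 29 and 38. Their adjusted p was 0.246 and 0.215 for S100a6 without vehicle 4 or 12-HETE 4, and 0.207 and 0.126 for Sphk1 without vehicle 5 or 12-HETE 5. S100a6 passed the count minimum only through the 12-HETE libraries (mean 12.4, and 9.67 without them), so its p is no support.

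The factors that Ccdc85b is known to repress were read last. In the β-catenin and TCF list, 1 of 13 tested genes was lower under 12-HETE and 1 higher under ADAR1 p150, with medians of -0.02 and -0.04, the first -0.28 with 10 counts in every library and -0.25 and 0.26 without vehicle 4 or vehicle 5. Tcf7l2, a TCF factor, had 36 and 39 counts in vehicle cells and 15 and 12 under 12-HETE (-1.65, adjusted p = 0.000119). Axin2, a feedback inhibitor that β-catenin switches on, had 21 and 30 counts in vector cells and 78 and 63 under ADAR1 p150 (1.17, adjusted p = 0.000401), and 28 and 38 in vehicle cells against 64 and 62 under 12-HETE (0.74, adjusted p = 0.0158). Its ADAR1 p150 value was 0.97 without vector 1, just under 2-fold. The 12-HETE value of Axin2 was under 2-fold and lost the p limit with DESeq2 (0.185) and without vehicle 4 (0.17), 12-HETE 4 (0.0585) or 12-HETE 5 (0.0802). The 5 tested C/EBP genes had medians of -0.32 and -0.68, which were -0.56 and -1.02 with 10 counts in every library. Among them Cebpb, a factor of mammary and inflammatory gene control, was lower in both. It had 77 and 68 against 28 and 28 counts (-1.56, adjusted p = 2.79e-06) under 12-HETE and 74 and 59 against 33 and 28 (-1.42, adjusted p = 1.64e-05) under ADAR1 p150. Ddit3 (CHOP), a stress-induced C/EBP relative, had 239 and 232 against 90 and 115 counts under ADAR1 p150 (-1.49, adjusted p = 5.33e-10), and 230 and 217 against 216 and 192 under 12-HETE (-0.32, adjusted p = 0.0634). Among the genes named from lists, Jdp2, Mafk, Atf5, Dusp1, Spry1, Sphk1, Hmga2, Axin2, Cebpb and Ddit3 share exonic bases with a gene on the opposite strand, with the same uncertainty of strand as Ccdc85b.

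**Figure D5:**
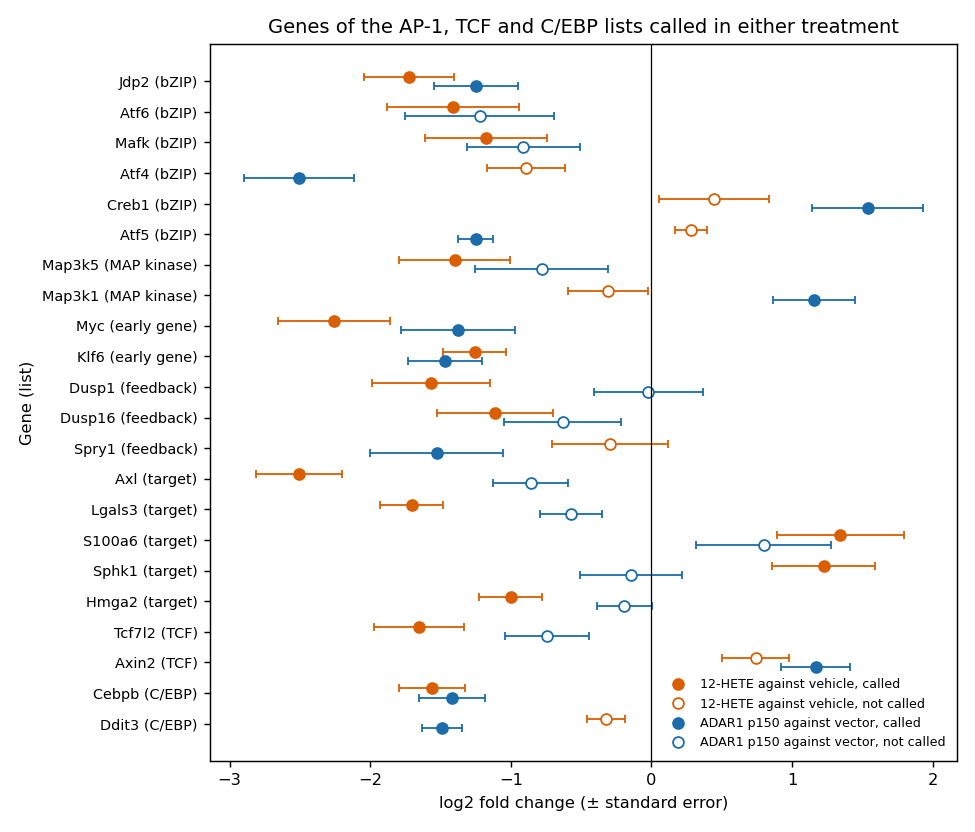
Log2 fold change with its standard error for the genes of the AP-1, β-catenin/TCF and C/EBP lists called in either treatment, for 12-HETE against vehicle (orange) and ADAR1 p150 against vector (blue), with filled points for calls. Jdp2, Myc, Klf6 and Cebpb are filled and lower in both, while Axl and Atf4, both at -2.51, are filled in 1 treatment each.

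The plot of list genes places the 4 genes called lower in both treatments among those called in 1. The 2 treatments had separate controls, but all 8 libraries entered the same fit and shared its estimate of the spread. The calls of the 2 contrasts are therefore not independent. The share of all genes tested that were called lower in both is not given here, so these 4 are a description.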

How the data were processed

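Total RNA of the 8 EO771 libraries was sequenced in pairs, and the authors' methods describe directional libraries, removal of duplicate reads, alignment with STAR to GRCm38 and counting with featureCounts. The labels and the methods name different kits, and whether and on which strand reads were counted is not given in the sources used here. The deposited values were raw counts per gene, which the authors did not normalize. Genes whose counts averaged 10 or more across libraries were tested (6901 of 49997) with edgeR 4.0.16 (R 4.3.3). TMM factors and 1 quasi-likelihood fit of 4 groups and 8 libraries were used, with Benjamini-Hochberg adjustment over all genes tested. A gene was called at an adjusted p under 0.05 and at least 2-fold, and the SE came from the log2 fold change and its F. The libraries held 1101767 to 1537037 counts. The members and gene lists were chosen with earlier results of these data known, so no list is independent evidence. From each list, the called genes with the largest change were named, up to 6 a contrast. Gene positions and exons came from GENCODE M21 and promoters from RefSeq. Alternatives were RLE factors, DESeq2 1.42.0, other count minimums, library sizes without the 3 most abundant RNAs, a replicate block, single contrasts and leaving out each library. A summed Ccdc85b and Fosl1 feature and a crossed block were added after seeing the data. The replicate numbers come from the titles and are not said to mark a shared culture or day. The fit was tested on simulated data. Some list genes are not reported here.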

Additional observations from a re-analysis of the deposited data

Results flagged for a closer look

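Of the genes named here, 6 differed between the 12-HETE effect and the ADAR1 p150 effect in edgeR's interaction contrast. The limits were the adjusted p and at least a 2-fold difference, and a negative value means a lower ADAR1 p150 effect. Of all genes tested, 8.33% were called in this contrast. The 6 were named because 1 of the 2 treatment contrasts called them, which favors a difference here. Their p is therefore no support, and the values are a description. Atf5 differed by -1.53 (adjusted p = 7.44e-08) and Ddit3 by -1.17 (adjusted p = 6.19e-05), so these 2 stress-response genes went lower against their control under ADAR1 p150 than under 12-HETE. Atf4 differed by -1.62 (adjusted p = 0.022). Axl differed by 1.65 (adjusted p = 0.00583) and Lgals3 by 1.13 (adjusted p = 0.013), and in these 2 AP-1 targets the fall was larger under 12-HETE. Map3k1 differed by 1.47 (adjusted p = 0.0111). With DESeq2 the adjusted p was 0.109 for Atf4, 0.0643 for Axl, 0.1 for Lgals3 and 0.115 for Map3k1. It also rose above 0.05 for Atf4 without vehicle 4, 12-HETE 4, vector 2 or ADAR1 p150 2 (0.0738, 0.138, 0.0807 and 0.119), for Axl without 12-HETE 4 (0.0504), for Lgals3 without vehicle 5, 12-HETE 5, vector 1 or ADAR1 p150 1 (0.0558, 0.0605, 0.0721 and 0.168) and for Map3k1 without vector 1 (0.0729). The 2 effects came from separate cell preparations, vehicle-treated and transduced, and this handling cannot be told apart from the treatments. As everywhere here, the values are counts listed under a symbol, with the limit of strand given above.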

How the results depend on the processing

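Against 991 calls under 12-HETE and 884 under ADAR1 p150, DESeq2 gave 590 and 441, a minimum of 10 counts in every library gave 481 and 429, and the adjusted p alone gave 2021 and 1766. Leaving out each library gave 845 to 920 and 709 to 804. The 575 calls of the difference became 254 with DESeq2 and 1033 with the adjusted p alone (460 to 544 without each library). The 3 calls between vector and vehicle became 6 with RLE factors, 0 with DESeq2 and with 10 counts in every library, 11 with no minimum, 8 without the 3 most abundant RNAs, 1 in a fit of the 4 libraries, 8 with the adjusted p alone, and 2 to 22 without each library. Of the 2 Fos and Jun genes called lower under 12-HETE, 1 was called with DESeq2, 1 with 10 counts in every library, and 1 without each library left out in turn. With ADAR1 p150, 0 became 2 with the adjusted p alone and 0 to 1 without each library. Ccdc85b moved past its replicate spread under 12-HETE without the 3 most abundant RNAs (-0.99), and between -1.04 and -0.85 without each library. With ADAR1 p150 it was -1.955 with RLE factors and with DESeq2, -2.002 with no minimum, -1.81 summed with Fosl1, and -1.94 to -1.85 without each library. Signs turned when a library was left out for Fosl1 under ADAR1 p150 (-0.39 to 0.14), between the controls (-0.14 to 0.37) and in the difference (-0.053 to 0.49), for Fosl2 under ADAR1 p150 (-0.67 to 0.037), for Junb between the controls (-0.61 to 0.0040) and in the difference (-0.30 to 0.74), and under ADAR1 p150 for Dusp1 (-0.22 to 0.22) and Sphk1 (-0.50 to 0.16). The cause was not tested.

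Same-numbered libraries did not deviate together (r = -0.08 under 12-HETE and -0.11 under ADAR1 p150, over genes), so the numbers were not taken to pair libraries. With the replicate block the calls were 942, 813 and 506, Ccdc85b was at -0.91 and -1.90, and Jund under ADAR1 p150 (adjusted p = 0.0706), Mafk (0.0624) and Dusp16 (0.0605) under 12-HETE lost the p limit. Crossing the ADAR1 p150 numbers gave 921 calls and 633 of the difference. Fos, Fosb and Jun lay under the count minimum and were fitted only without it.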
